A study of Rattus norvegicus with 20 samples.

Results

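The thymus pool is a single small RNA library, 1 of 20 in a rat miRNA atlas, and its miRNAs are described here against those of 14 other tissues. It was taken by its label, with no use of measured values, and it has no replicate. The rats, males of the Long Evans strain aged 35 days, were left untreated, so no group carried a treatment or an allele. The thymus library and each of the other 13 pools (fat, heart, kidney, large intestine, liver, lung, pancreas, skeletal muscle, skin, small intestine, spleen, stomach and testes) held small RNA of 3 rats mixed before sequencing. Brain was measured in 3 hemispheres run one by one, and their mean entered as 1 tissue, while the 3 serum libraries were left out of the comparisons.

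The thymus is the organ in which T cells mature, and most of its cells are thymocytes, developing T cells held in a meshwork of epithelium. A miRNA is a short RNA cut from a hairpin precursor, and it lowers the output of mRNAs that pair with its seed, the bases near its 5′ end. Members of the mir-181 family are known for tuning the strength of T cell receptor signalling in thymocytes, mir-142 is a miRNA of all blood cell lineages except red cells, and the mir-17-92 cluster and its paralogues are known for their part in the growth and survival of lymphocyte progenitors.

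The mature sequences below belong to the miRNAs that set the thymus library apart. They are from RefSeq (GRCr8), in which 534 of the 577 mature miRNAs listed in the files had a sequence of the same name, covering 99.3% of the thymus mature reads. They are written 5′ to 3′ with the seed, bases 2 to 8, in capitals. The first group shares the miR-181 seed, which carried 35.5% of the thymus mature reads.
miR-181a-5p: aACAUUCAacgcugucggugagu
miR-181b-5p: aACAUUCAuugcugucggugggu
miR-181c-5p: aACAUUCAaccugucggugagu
miR-181d-5p: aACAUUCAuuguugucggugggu
The next are miR-128, high in thymus and brain, and both arms of mir-142, the miRNA of blood cells.
miR-128-3p: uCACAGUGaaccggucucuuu
miR-142-5p: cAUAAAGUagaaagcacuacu
miR-142-3p: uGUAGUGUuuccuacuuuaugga
The mir-17-92 cluster and its paralogues gave sequences of a miR-17/93 seed and of a miR-25/92 seed.
miR-17-5p: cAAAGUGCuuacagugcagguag
miR-20a-5p: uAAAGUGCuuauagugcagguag
miR-93-5p: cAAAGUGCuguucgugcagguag
miR-106b-5p: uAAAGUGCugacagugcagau
miR-25-3p: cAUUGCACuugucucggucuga
miR-92a-3p: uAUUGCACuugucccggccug
miR-363-3p: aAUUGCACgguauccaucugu
miR-130b and miR-301b, both highest in thymus, share a further seed.
miR-130b-3p: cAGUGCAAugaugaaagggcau
miR-301b-3p: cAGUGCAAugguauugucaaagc
Of the sequences lowest in thymus, miR-195 and miR-497 have the seed of miR-16, which was highest there, and miR-125a and miR-125b share another.
miR-16-5p: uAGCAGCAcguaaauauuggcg
miR-195-5p: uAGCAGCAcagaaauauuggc
miR-497-5p: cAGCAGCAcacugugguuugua
miR-125a-5p: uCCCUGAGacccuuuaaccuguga
miR-125b-5p: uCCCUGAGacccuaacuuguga
miR-99b-5p: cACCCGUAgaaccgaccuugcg
let-7c-5p: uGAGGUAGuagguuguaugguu

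The thymus library held 658618 reads on miRNA precursors, the 7th most of 17 tissue libraries, against 162080 to 3685761 in the others. Levels are RPM, the reads of a precursor scaled to a precursor total of 1000000 per library, and mature miRNAs are scaled likewise to the mature total. A count of 0 in thymus allowed up to 4.55 RPM (3 reads), and in spleen, with 213413 reads, up to 14.1 RPM. Intervals are 95% exact Poisson intervals of the thymus count or exact conditional intervals of a ratio of 2 counts, and they cover counting error only. With 1 library there was no test, no spread between thymus samples was measured, and a difference between libraries cannot be separated from differences between pools of rats or preparations.

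Of 444 precursors listed, 295 had at least 10 reads in at least 3 of the 17 tissue libraries and were compared, among them 52 with no thymus read. A precursor was called when it was at least 2-fold above or below the median of the other 14 tissues on the log2(RPM + 1) scale, which understates the change of low miRNAs. Thymus was above in 68 (23.1%) and below in 98 (33.2%), and it was the highest of the 15 tissues for 22 (7.46%) and the lowest for 22 (7.46%). The balance of the calls moved with the scaling: 41.0% of the calls were above the median with library totals, 29.6% (53 above, 126 below) with TMM factors and 55.0% (94 above, 77 below) with DESeq2 size factors. The median difference over all precursors tested was -0.19 with totals, -0.63 with TMM and 0.00 with DESeq2, and differences are best read against it. The number highest in thymus depended on the scaling as well, at 24 (8.14%) with TMM and 54 (18.3%) with DESeq2. The 22 found with totals were all among the 54, and 19 were among the 24, where mir-17-1, mir-181d and mir-92a-1 ranked second. The number lowest in thymus was 41 with TMM and 14 with DESeq2, and these held 22 and 14 of the 22 found with totals. Of the 98 called below, 38 rested on fewer than 3 thymus reads. With these raised to the level of 3 reads, a choice made after the data were seen, 65 calls below the median were left.

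The 3 miRNAs named for the thymus were high in it, although mir-128 was higher in brain. mir-142 stood at 65299 RPM (43007 reads, interval 64683 to 65919), against a lowest value of 138 in brain, a median of 854 and a highest of 59167 in spleen. The next tissue, fat, stood at 11488 RPM, and the ratio of thymus to spleen was 1.10 (1.08 to 1.13). mir-93 stood at 4093 RPM (3940 to 4251), against 297 in pancreas, a median of 501 and 2066 in spleen, a ratio to spleen of 1.98 (1.79 to 2.20). In bulk tissue, fewer cells of a type and less RNA per cell cannot be told apart, so none of these levels is a count of cells.

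The mir-181 family was the most abundant in thymus, and 5 of its 6 precursors were highest there of the 15 tissues. All 6 were at least 2-fold above the median of the other tissues, with a median difference of 3.83 against -0.19 over all precursors. Of all precursors tested, 23.1% were above and 7.46% were highest in thymus. mir-181a-1 stood at 120458 RPM in thymus, between 2453 in pancreas and 97908 in brain (86982 to 109000 in its 3 libraries) elsewhere, with a median of 8669. mir-181a-2 read nearly the same in each tissue, 117552 RPM in thymus and 97685 in brain, because both copies give 1 mature sequence and their reads cannot be fully assigned. The 181a and 181b copies are therefore 2 results and not 4.

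mir-181b was set further apart. mir-181b-1 stood at 30382 RPM in thymus, 10664 in brain (9805 to 12069) and 2076 in spleen, with a median of 1596 and a lowest value of 228 in pancreas. The thymus value was 2.85 times that of brain and 14.6 times that of spleen (13.3 to 16.1). mir-181b-2 read 30128 RPM in thymus and 2024 in spleen. Beside it, mir-181a-1 was 5.28 times its spleen level (5.13 to 5.44), so the balance of 181b to 181a differed between the organs: 0.252 in thymus (0.248 to 0.256), 0.0911 in spleen (0.0824 to 0.1004) and 0.111 in brain, with the highest ratio of 0.374 in testes.

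mir-181d, from the third locus of the family, was also highest in thymus, at 2235 RPM (2122 to 2352) against 1935 in brain (1746 to 2094) and 64.0 in liver. Its neighbour mir-181c was 5th of 15 with totals, at 7072 RPM, with 12888 in brain and 4808 in spleen. Its rank and its difference of 1.42 from the median moved with the scaling. They were 4th and 0.45 with TMM, and first and 1.60 with DESeq2. With TMM, 5 of the 6 members stayed above 2-fold, as did 18.0% of all precursors. With DESeq2, all 6 members were highest in thymus, as were 18.3% of all precursors.

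The passenger strands, cut from the other side of the hairpin, separate the copies that the main strands do not. miR-181a-1-3p had 937.5 reads in thymus (1771 mature RPM), against a highest level of 380 in brain and a median of 55.3, whereas miR-181a-2-3p had 0 reads. miR-181b-1-3p had 121 reads (229 mature RPM, with 48.6 in spleen next) and miR-181b-2-3p had 1. The second copies were near 0 in the other 16 tissue libraries as well, with 2 reads of miR-181a-2-3p beside 1335 of miR-181a-1-3p, so their absence is not particular to thymus. miR-3570 is listed with the same 937.5 reads as miR-181a-1-3p, and its 22 bases are the exact reverse complement of it. The counts do not separate these strands, so miR-3570 is not a separate result. The level given for miR-181a-1-3p may therefore hold only a part of its reads.

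Summed by seed, the 4 mature miR-181 members took 355298 RPM in thymus, 35.5% of its mature reads. Brain followed with 259243, spleen had 66433, the median was 33988 and the lowest was 8342 in pancreas. miR-181a-5p alone was 79.5% of the thymus sum. No other seed group shown took as large a share of the thymus library, and let-7 was next with 17.7%.

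**Figure D1:**
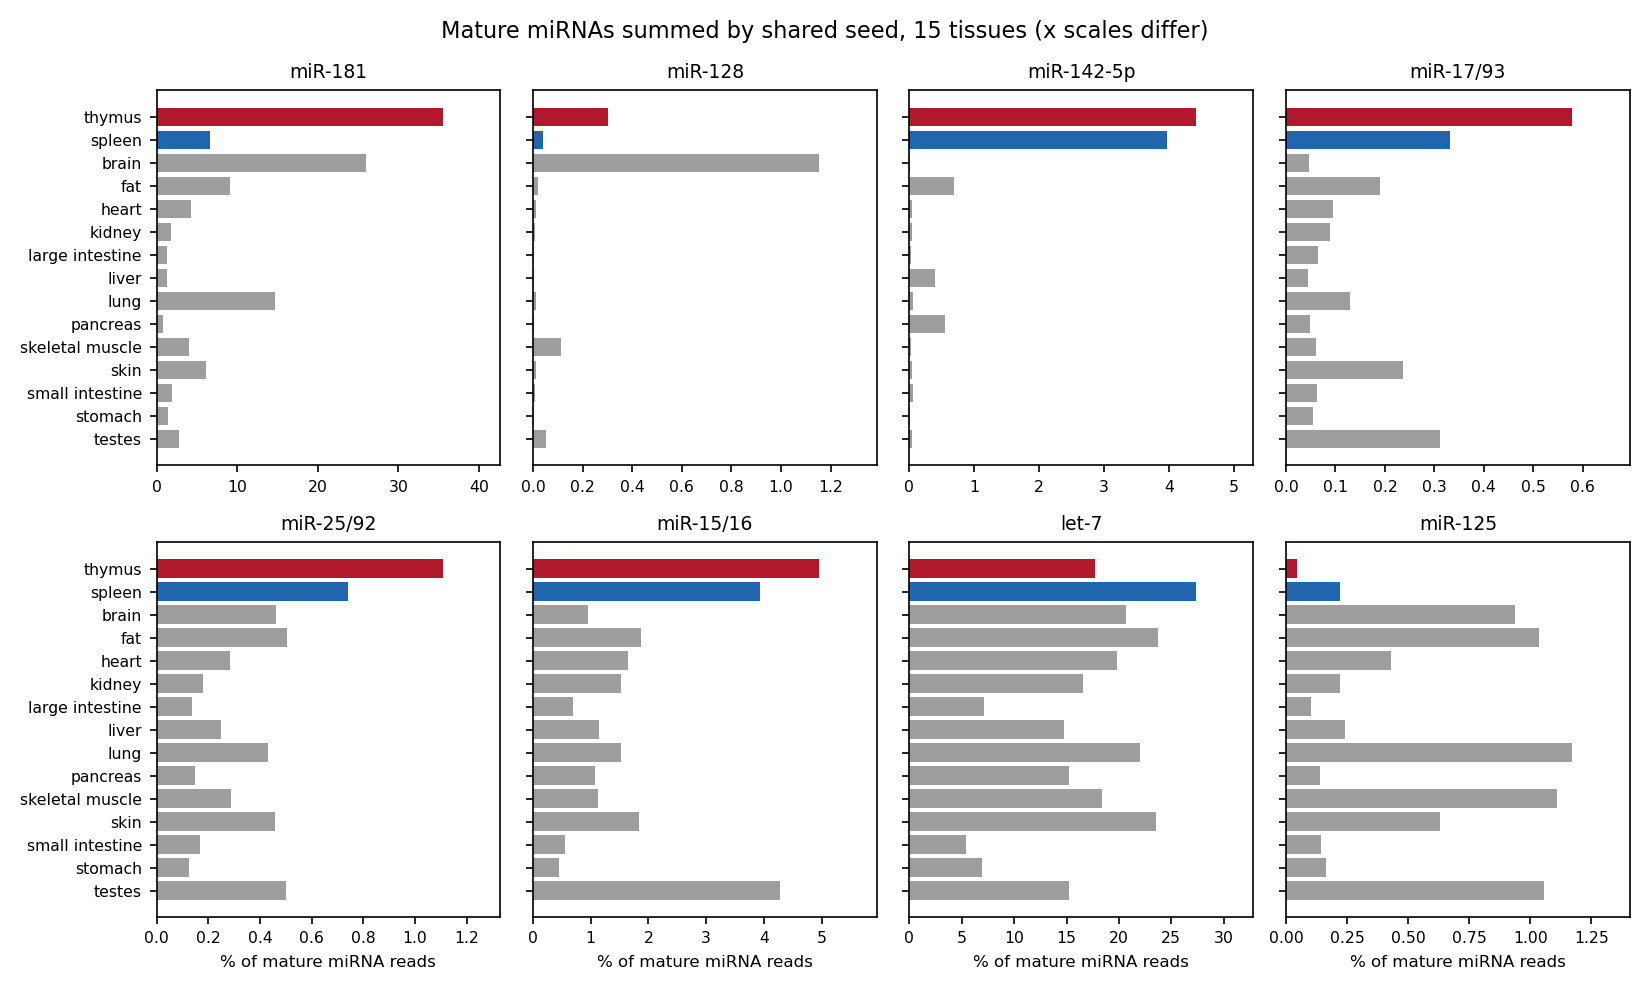
Mature miRNAs summed by shared seed, in percent of the mature miRNA reads of each of 15 tissues (thymus red, spleen blue, the others grey, 1 library per bar except brain, the mean of 3), with a separate scale from 0 in each panel. The miR-181 bar of thymus is at 35.5% and the highest of 15, the miR-128 bar is second to brain, and the miR-125 bar is the lowest of 15.

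mir-128, which brain expresses most, was second in thymus and low in nearly all other tissues. mir-128-1 stood at 3547 RPM in thymus (2336 reads, 3404 to 3694), 12452 in brain (10379 to 13728), 1219 in skeletal muscle and 417 in spleen, and from 44.6 in pancreas to 376 in testes in the other 11 pools. mir-128-2 stood at 1836 RPM in thymus (1209 reads, 1734 to 1942), 3489 in brain (3210 to 3782), 359 in skeletal muscle and 75.0 in spleen, and was listed at 0 in liver, pancreas and stomach. Only brain was above thymus for either copy, and with DESeq2 factors thymus ranked first for both.

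The copies are placed within different genes in RefSeq, mir-128-1 in R3hdm1 and mir-128-2 in Arpp21, a gene known in thymocytes and neurons. Of the 15 tissues, thymus had the most mir-128-2 beside mir-128-1. The second copy was 0.518 of the first in thymus (0.482 to 0.555), 0.180 in spleen (0.0985 to 0.308), 0.278 in brain and 0.294 at most elsewhere, in skeletal muscle. Against spleen, mir-128-1 was 8.50 times higher in thymus (6.88 to 10.6) and mir-128-2 was 24.5 times higher (15.02 to 43.0), on 16 spleen reads for the latter. Both copies give miR-128-3p, at 3038 mature RPM in thymus, 11553 in brain and 401 in spleen. The ratio rests on how reads of a shared sequence were divided between copies, whose part in it was not tested.

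The mir-17-92 cluster and its paralogues were raised together in thymus and spleen. All 6 tested members of mir-17-92, all 3 of mir-106a-363 and all 3 of mir-106b-25 were at least 2-fold above the median, under each of the 3 scalings. The list medians were 3.01, 4.23 and 2.47 on the log2 scale, against -0.19 over all precursors, of which 23.1% were above with totals. The members differed in how thymus stood to spleen, and their ratios below use library totals. TMM factors multiply each precursor ratio of thymus to spleen by 1.22, and DESeq2 factors multiply it by 2.02, so a ratio near 1 has no fixed direction.

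mir-363, the last hairpin of the mir-106a-363 cluster on the X chromosome, was the furthest raised of them. It stood at 1064 RPM in thymus (701 reads, 987 to 1146) and 422 in spleen, a ratio of 2.52 (2.02 to 3.18), with a median of 20.5 and 3.78 in stomach. mir-92a-2 of the same cluster stood at 2610 RPM (2488 to 2736) against 1462 in spleen, a ratio of 1.79 (1.58 to 2.02), and 33.8 in brain. mir-19b-2 was 71.4 RPM in thymus and 79.7 in spleen, with 134 in pancreas the highest. mir-20b did not pass the filter, with 41 reads in thymus (62.3 RPM) and 4 in spleen (18.7 RPM).

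Of mir-106b-25, which RefSeq places within Mcm7, a gene of DNA replication, all 3 members were highest in thymus. mir-25 stood at 7498 RPM against 4962 in spleen, a ratio of 1.51 (1.41 to 1.62), and 750 in brain. mir-106b stood at 419 RPM against 398 in spleen, a ratio of 1.05 (0.822 to 1.36), so that the 2 libraries did not differ beyond counting error. With mir-93 at 1.98, none of the 3 reached 2-fold over spleen with library totals, whereas 1 did with TMM and 3 with DESeq2. The share over all precursors moved as well, from 18.3% with totals to 19.7% with TMM and 30.2% with DESeq2.

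In mir-17-92 itself thymus and spleen were close. mir-17-1 stood at 323 RPM in thymus and 281 in spleen (ratio 1.15, 0.860 to 1.56), mir-20a at 273 and 295 (0.926, 0.691 to 1.25) and mir-19a at 290 and 305 (0.952, 0.715 to 1.28). mir-19b-1 stood at 1283 against 1499 RPM (0.856, 0.751 to 0.976), a log2 difference of -0.22 that turned to 0.06 with TMM and 0.79 with DESeq2, and mir-18a stood at 138 against 84.3 RPM (1.64, 0.981 to 2.89). None of the 6 differed 2-fold from spleen with totals or TMM, and 3 did with DESeq2. Of all precursors, 30.2% were at least 2-fold higher in thymus than in spleen with DESeq2, against 18.3% with totals. mir-92a-1 was the most abundant, at 14940 RPM in thymus, 13162 in liver and 10473 in spleen, with a lowest value of 580 in kidney. Only 654 thymus reads were counted on mature miR-92a-3p beside 9840 on mir-92a-1, so the size of the miR-92 part depends on the annotation. Smaller gaps were present for the thymus markers. mir-142 had 43007 precursor reads beside 23349 on its 5p arm and 1048 on its 3p arm. miR-128-3p had 1608 reads beside 2336 on mir-128-1 and 1209 on mir-128-2. Over the thymus library, mature reads were 80.4% of precursor reads.

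Summed by seed, miR-17/93 members took 5790 mature RPM in thymus, 3321 in spleen and 454 in liver, the lowest. miR-25/92 members took 11079 in thymus, 7388 in spleen and 1240 in stomach, of which miR-25-3p was 80.9% in thymus. miR-19a-3p and miR-19b-3p together took 1948 in thymus and 2349 in spleen. Spleen was the highest tissue for them with totals only, and thymus was the highest with TMM (2535 against 1740) and with DESeq2 (3424 against 1900).

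A second pair of neighbouring hairpins was highest in thymus, mir-301b and mir-130b. mir-130b stood at 1445 RPM (952 reads, 1355 to 1540), 431 in spleen, 254 in small intestine and 9.91 in pancreas, with a median of 45.5. The ratio to spleen, the next tissue, was 3.35 (2.70 to 4.20), the widest margin of any precursor with at least 100 thymus reads. mir-301b had 71 reads in thymus (108 RPM) against 37.5 RPM in spleen (ratio 2.88, 1.38 to 6.92). mir-301a, from another locus, stood at 2033 RPM in thymus and 1921 in spleen.

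mir-374 and mir-140 completed the 18 precursors with at least 100 thymus reads that were highest there. mir-374 stood at 200 RPM (168 to 238) in thymus and between 25.5 and 70.5 in all 14 other tissues, a ratio of 2.84 (2.06 to 3.96) to stomach, the next. mir-140 was 1464 RPM in thymus and 1265 in spleen, a ratio of 1.16 (1.01 to 1.33).

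**Figure D2:**
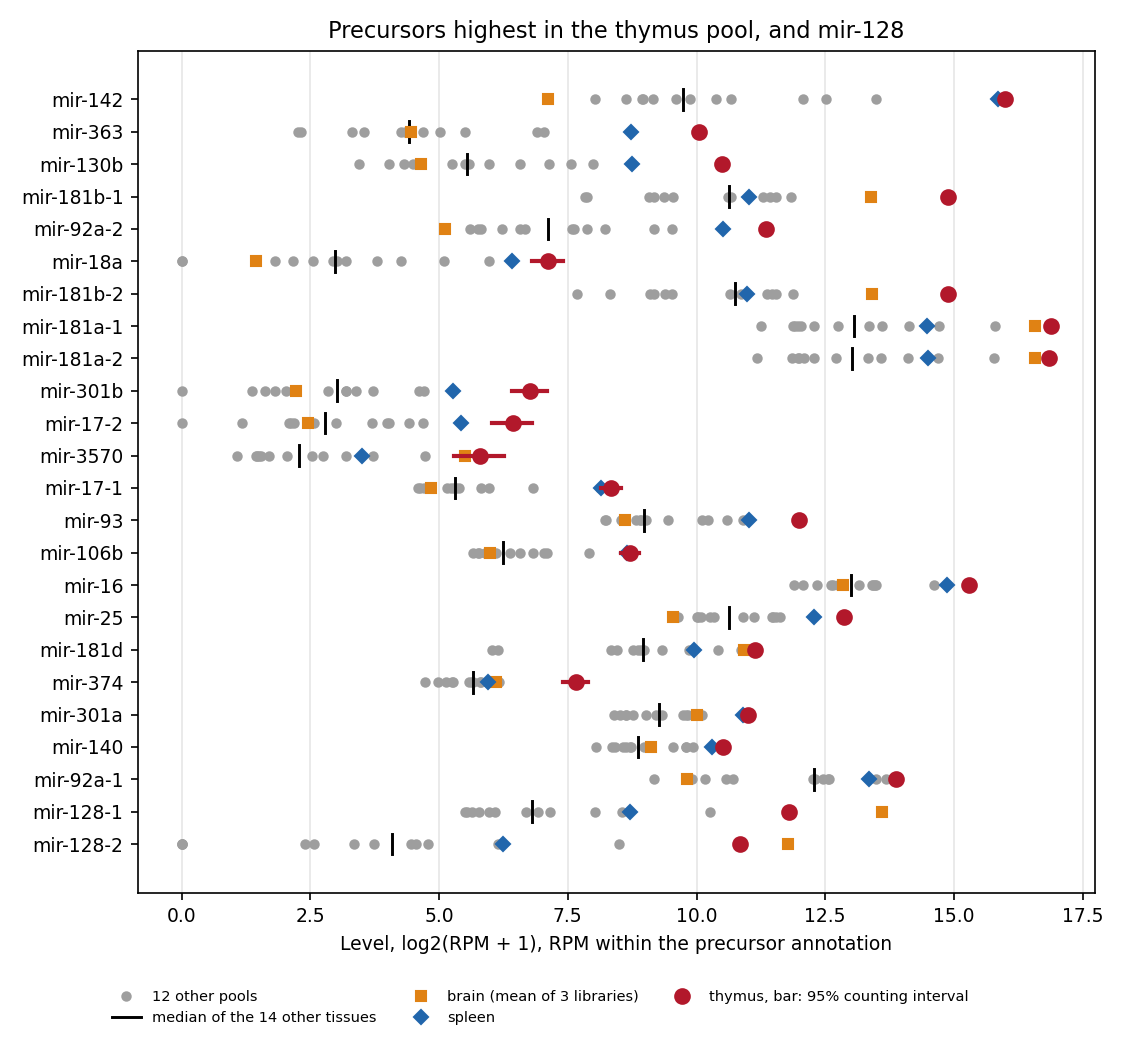
Levels on the log2(RPM + 1) scale, for the 22 precursors highest in the thymus pool of 15 tissues and the 2 mir-128 copies. Each point is 1 tissue (thymus red with its 95% counting interval, spleen blue, brain orange, the other 12 pools grey) and the black tick is the median of the 14 other tissues. Spleen is next to thymus for most rows outside the mir-181 family, in which brain is next, and brain lies above thymus for both mir-128 copies.

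The leukocyte miRNAs did not move as 1 group. Of 6, 3 were at least 2-fold above the median of the other tissues and none below, with a median difference of 0.96. The count above was 2 with TMM and 4 with DESeq2, where the share over all precursors moved from 23.1% with totals to 18.0% and 31.9%. mir-155, induced in activated lymphocytes, stood at 216 RPM in thymus and 230 in spleen (ratio 0.939, 0.674 to 1.33), with 133 in fat and 37.2 at most elsewhere. mir-150, a miRNA of mature lymphocytes, stood at 281 RPM in thymus, against 2498 in spleen, 2072 in fat and a median of 142. Spleen was 8.89 times thymus (7.51 to 10.6) for it.

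mir-223, a miRNA of granulocytes and monocytes, stood at 33.4 RPM in thymus (22 reads, 20.9 to 50.6), near the median of 24.3, and at 365 in spleen, 10.9 times higher (6.74 to 18.4). mir-146a, a target of NF-kB signalling, was 3922 RPM in thymus and 9044 in spleen. mir-146b was 1960 RPM in thymus and 3875 in spleen, with 10360 in lung the highest. The ratio of mir-142 to mir-150 was therefore 232 in thymus (201 to 270), 23.7 in spleen (21.7 to 25.9) and 73.3 at most elsewhere, in pancreas. mir-142 over mir-223 was 1955 in thymus (1291 to 3120), 162 in spleen and 312 at most elsewhere, in fat. The 5p arm took 95.7% of the mir-142 arm reads in thymus (Wilson interval 95.4 to 96.0) and 96.1% in spleen (95.6 to 96.5), and these intervals overlap.

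Within the mir-15/16 family, whose members share a seed and are known to restrain the cell cycle, thymus was both highest and lowest. mir-16 stood at 40187 RPM in thymus (39705 to 40674), 30031 in spleen, 25123 in testes and 3808 in stomach, with a median of 8224. mir-195 stood at 80.5 RPM in thymus (53 reads, 60.3 to 105), below all other tissues, which ran from 166 in large intestine to 761 in lung. mir-497, its neighbour in RefSeq, stood at 19.7 RPM (13 reads, 10.5 to 33.8) against 29.9 to 331 elsewhere. The lowest other tissue, small intestine, lies within that interval. mir-16 was 499 times mir-195 in thymus (382 to 667), 70.4 times in spleen (57.3 to 87.6) and 11.7 times in brain, the lowest. mir-15b was 91.1 RPM in thymus and 173 in spleen. Of 4 tested members on the list, 2 were above the median (1 with TMM) and 2 below under every scaling. The shares over all precursors were 23.1% above and 33.2% below with totals. miR-322-5p also has this seed, but its precursors mir-322-1 and mir-322-2 were not on the list. Their differences from the median were -1.26 and -1.02 with totals, -2.02 and -1.84 with TMM, and -0.91 and -0.73 with DESeq2.

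The members of let-7, a family of differentiated cells, lay on both sides of the median. let-7f-1 was the 4th most abundant precursor in thymus at 88540 RPM (119967 in spleen, median 69585), and let-7i stood at 40913 RPM (56267 in spleen, median 18551). let-7c-1 stood at 1152 RPM (1072 to 1237) and was lowest in thymus, with 1304 in pancreas next, 8894 in spleen, a median of 6360 and 22855 in lung. let-7b stood at 220 RPM (186 to 259), between 244 in kidney and 4528 in lung elsewhere. let-7c-1 was 0.0130 of let-7f-1 in thymus, 0.0741 in spleen, 0.110 at the median and 0.355 in brain, with the next lowest ratio 0.0170 in pancreas. In all, 2 of 12 members were above the median and 4 below, near the shares over all precursors of 23.1% and 33.2%. With TMM these counts were 0 and 7, and with DESeq2 they were 5 and 4. Summed by seed the family took 176833 mature RPM in thymus against a median of 175065, 8th of 15 with totals and first with TMM and DESeq2.

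The hairpins that lie beside let-7c-1 and let-7e were low in thymus as well. Animals carry these as clusters of a mir-99 or mir-100, a let-7 and a mir-125 hairpin, and they are known in blood stem cells. mir-99a, which RefSeq places beside let-7c-1 in a long noncoding RNA gene, stood at 42.5 RPM in thymus (28 reads, 28.2 to 61.4), against 69.7 in large intestine, 492 in spleen, a median of 548 and 1108 in brain. mir-125b-2 stood at 68.3 RPM (49.8 to 91.4), between 188 in small intestine and 3426 in brain elsewhere, with a median of 697. Spleen was 11.6 times thymus for mir-99a (7.57 to 18.2) and 4.73 times for mir-125b-2 (3.20 to 7.05).

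In the cluster within Spaca6, mir-125a stood at 125 RPM in thymus (99.0 to 155), with 347 in pancreas next and a median of 875. mir-99b stood at 79.0 RPM, with 154 in pancreas next and a median of 473. let-7e was 774 RPM in thymus and 753 in pancreas, and thymus ranked 14th of 15 for it. In the third cluster, mir-100 was lowest in thymus at 97.2 RPM (74.8 to 124), with 128 in liver next, and mir-125b-1 was 105 RPM with 94.8 in kidney below it. The let-7 hairpin of this cluster, let-7a-2, was not called, at 10th of 15 with a difference from the median of -0.82. With TMM its difference was -1.36 and it was lowest of 15, and with DESeq2 it was 9th at -0.04. mir-99a, let-7c-1, mir-125a and mir-125b-2 were lowest of 15 under all 3 scalings. Summed by seed, the miR-125 group took 440 mature RPM in thymus (386 to 501), lowest of 15, with 1013 in large intestine next and 11724 in lung the highest. This group also holds miR-351-5p, from a hairpin outside these clusters. miR-351-5p was its largest member in thymus, with 41.2% of the sum, so the sum is not of miR-125a and miR-125b alone.

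mir-10a and mir-151 complete the low group. mir-10a, a miRNA of the Hox clusters, stood at 5009 RPM in thymus, above testes (3492) and brain (4182) and below the other 12 pools, which ran from 14956 in skin to 159309 in kidney, and spleen was 13.03 times thymus (12.5 to 13.5). mir-151 was lowest in thymus at 490 RPM (438 to 547), with 1514 in stomach next and a median of 3425. mir-31a had 5 reads in thymus after rounding (7.55 RPM, 2.44 to 17.7) against a median of 142, and mir-375, a miRNA of endocrine cells, had 20 (30.4 RPM) against a median of 624 and 6.94 in heart, the lowest.

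**Figure D3:**
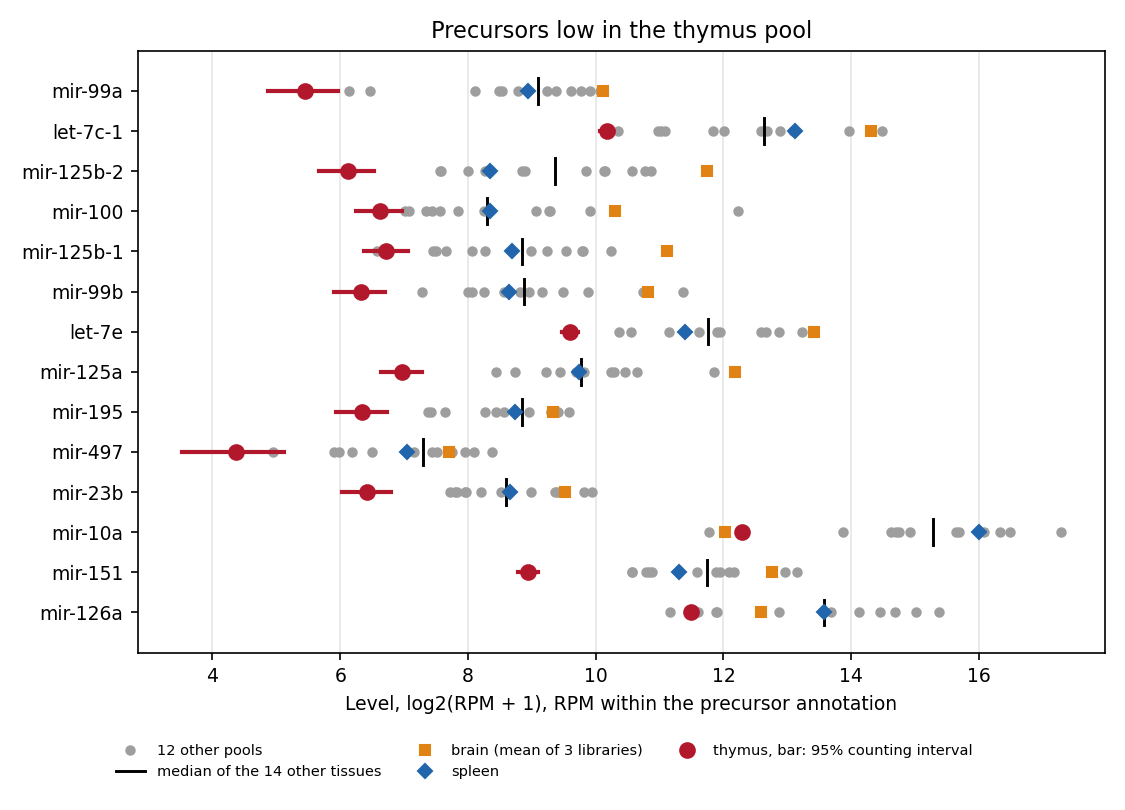
Levels on the log2(RPM + 1) scale, for 14 precursors low in the thymus pool, with thymus red and its 95% counting interval, spleen blue, brain orange, the other 12 pools grey, and a black tick at the median of the 14 other tissues. Thymus is at the left end for mir-99a, let-7c-1, mir-125b-2, mir-99b, mir-125a, mir-195, mir-497, mir-23b, mir-100 and mir-151, while 1 tissue lies below it for let-7e, mir-125b-1 and mir-126a, and 2 for mir-10a.

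Markers of the other cells that a thymus dissection can hold gave these values. Endothelial mir-126a stood at 2888 RPM in thymus (2760 to 3021), 14th of 15, with 2289 in testes below it, 12206 in spleen and 42495 in heart. Mesenchymal mir-199a stood at 524 RPM, 14th of 15, against 2174 in spleen and a median of 1965, and mir-145 at 94.1 against 351 in spleen. mir-143, often taken with mir-145 as a smooth muscle miRNA, was nevertheless the most abundant precursor in thymus at 144216 RPM (94983 reads), near its median of 127862 and below 172787 in spleen. Over the lists, 3 of 4 mesenchymal and 2 of 3 endothelial precursors were at least 2-fold below the median with totals (3 and 3 with TMM, 2 and 1 with DESeq2). Of all precursors tested, 33.2% were below with totals, 42.7% with TMM and 26.1% with DESeq2. The list medians were -1.84 and -1.25, against -0.19 over all precursors. Summed levels of the mesenchymal list, most of it mir-143, were 144835 RPM in thymus and 24807 to 615854 elsewhere, and of the endothelial list 2997 RPM and 2850 to 42642.

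The list of the imprinted Dlk1-Dio3 cluster held 23 tested miRNAs. Other tested hairpins of the locus, mir-434-2 among them, were not on it. Of the 23, 16 were at least 2-fold below the median (18 with TMM, 16 with DESeq2) and none above, with a median of -2.14. Of the 16, 9 had fewer than 3 thymus reads. With thymus raised to the level of 3 reads for these, 8 calls were left and the list median was -0.26, against 0.22 over all precursors treated alike, so for the others a low level was not resolved at this depth. mir-127 stood at 114 RPM in thymus (75 reads, 89.6 to 143), above 19.6 in kidney and below the other 13 tissues, with a median of 878 and 49957 in brain. Spleen was 9.79 times thymus for it (7.52 to 12.9). mir-434-2 had 9 reads in thymus (13.7 RPM) against a median of 113. The summed level of the list was 365 RPM against 207 in lung and 2553 in spleen. Of the mir-23, mir-27 and mir-24 hairpins, 3 of 6 were below the median (6 with TMM, 2 with DESeq2) and none above. To set beside this list and the Dlk1-Dio3 list, the share below over all precursors was 33.2% with totals, 42.7% with TMM and 26.1% with DESeq2. mir-23b was lowest in thymus at 85.0 RPM, against 210 in testes and 403 in spleen.

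**Figure D4:**
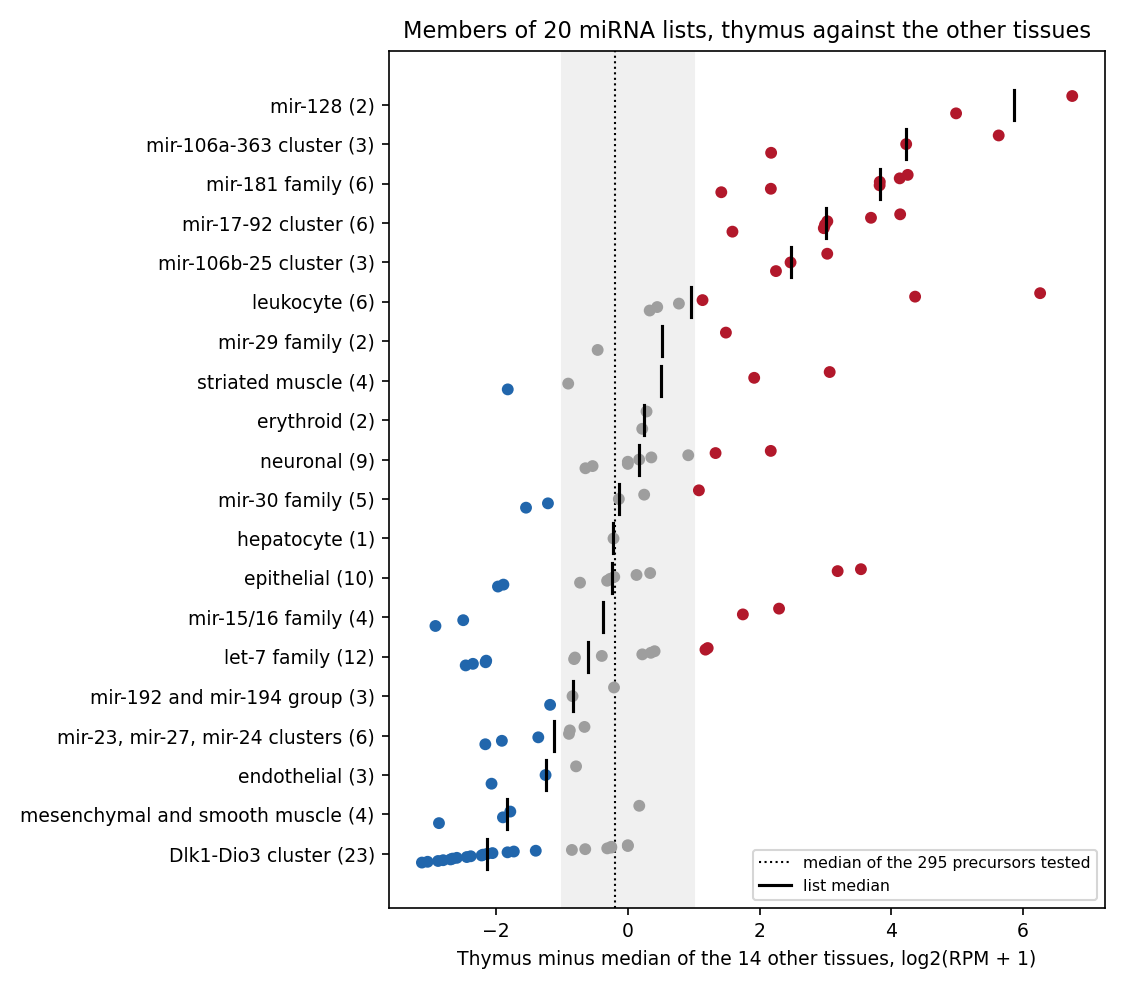
Difference between the thymus pool and the median of the 14 other tissues, in log2(RPM + 1), for each tested member (point) of 20 miRNA lists, ordered by list median (black tick), with the number of members in brackets. Points at least 2-fold above are red, at least 2-fold below blue and the rest grey, on a grey band of less than 2-fold, and the dotted line is the median of all 295 precursors, -0.19. The mir-128, mir-181 and mir-17-92 related lists lie wholly to the right of the band, and no member of the Dlk1-Dio3 list does.

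Spleen, the other lymphoid organ, was the tissue most like thymus, with Pearson's r of 0.894 and Spearman's rho of 0.881 over the 295 precursors, followed by lung with 0.863. Skeletal muscle, with 0.684, and brain, with 0.576, were least like it. These are correlations across miRNAs, which are not independent replicates, and with 0.1 RPM in place of 1 RPM added before the log, lung came first and spleen fell to 0.857. Between these 2 libraries, 54 of 295 precursors (18.3%) were at least 2-fold higher in thymus and 109 (36.9%) at least 2-fold higher in spleen. With DESeq2 factors the counts turned to 89 and 65. Of the 54, 37 had fewer than 3 spleen reads, and with spleen raised to the level of 3 reads for these, 26 were left. With thymus treated in this way, 87 of the 109 were left. The median difference from spleen over all precursors was -0.33 with totals, -0.05 with TMM and 0.04 with DESeq2.

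Red cell miRNAs gave the widest gap. mir-451 stood at 15.2 RPM in thymus (10 reads, 7.28 to 27.9) and 6026 in spleen, 397 times higher (215 to 830). mir-144, from the same cluster, stood at 21.3 RPM (14 reads, 11.6 to 35.7) and 6790 in spleen, 319 times higher (190 to 586). In the other 13 tissues mir-451 ran from 0.814 in large intestine to 152 in lung, so thymus lay within their range. Their summed level of 36.4 RPM in thymus is near 0 beside the spleen, and the spleen comparison of each leukocyte miRNA stands beside this difference, whose part in them was not tested.

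After red cell miRNAs, the largest differences toward spleen were of mir-375 (30.4 against 1181 RPM, 38.9 times, 24.6 to 64.8), mir-184 (9.11 against 164 RPM) and mir-204 (66.8 against 1101 RPM, 16.5 times, 11.9 to 23.3). mir-10a, mir-99a and mir-223, given above, follow them.

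In the other direction, several epithelial miRNAs were higher in thymus. Of 10 on the list, 9 were at least 2-fold higher in thymus than in spleen with totals and with TMM, and 10 with DESeq2. Of all precursors, 18.3% were higher in thymus with totals, 19.7% with TMM and 30.2% with DESeq2. The median difference of the list was 4.12 with totals, against -0.33 over all precursors. mir-200c, mir-183 and mir-96 had 0 spleen reads and stood at 7.59, 12.3 and 10.6 RPM in thymus. These levels are below the 14.1 RPM that a count of 0 allows in spleen. A difference was therefore not detectable for mir-200c and mir-96. For mir-183 the level alone does not decide it, because its reads are not separated from those of mir-3553 on the opposite strand. mir-3553 had 49.9 reads in thymus and 0 in spleen. With spleen raised to the level of 3 reads where it had fewer, 6 of the 10 were left, with a median difference of 3.03 against -1.44 over all precursors. Of all 295 precursors, 26 were left. mir-141, of the mir-200 family that holds cells in an epithelial state, stood at 3509 RPM in thymus (2311 reads) and 155 in spleen (33 reads), 22.7 times higher (16.1 to 33.0). mir-205, a miRNA of stratified epithelium and of the thymic epithelium, had 121 reads in thymus (184 RPM) and 1 in spleen (39.2 times, 6.91 to 1561). mir-429 had 320 and 3 reads (34.6 times, 11.7 to 168), mir-200a 173 and 2 (28.0 times, 7.64 to 233) and mir-200b 101 and 1 (32.7 times, 5.74 to 1305). mir-203a, a miRNA of the epidermis, was the member that did not reach 2-fold, at 135 RPM in thymus and 103 in spleen (1.31, 0.815 to 2.20).

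Against all 14 tissues, several of which are rich in epithelium, the same list was spread. Thymus ranked 3rd of 15 for mir-141, after large intestine (5206 RPM) and skin (3792), and 4th for mir-205, after skin (9133), stomach (997) and fat (419). It was below the median at 153 RPM for mir-200b, with a median of 616 and 4624 in large intestine. Over the list 2 of 10 were above the median and 2 below, against shares over all precursors of 23.1% and 33.2%. The summed level of the list was 7558 RPM in thymus against 188 in heart, 717 in spleen and 95349 in skin.

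mir-873, a miRNA of the brain, was the other precursor far above spleen, with 69 reads in thymus (105 RPM, 81.5 to 133) and 0 in spleen. Its thymus level was 7.45 times the level of 3 spleen reads, a ratio that leaves out the counting error of the thymus reads. Brain had 348 RPM (329 to 361), lung 7.11, fat 2.04 and large intestine 0.271, and the other 10 tissues were listed at 0. Of its mature arms, miR-873-5p had 24 reads in thymus and miR-873-3p had 3. mir-3553 had 49.9 reads in thymus and 0 in spleen, but its hairpin lies opposite to that of mir-183 in RefSeq and the 2 strands cannot be told apart in these counts. mir-196b-1 had 22 reads in thymus (33.4 RPM) and 1 in spleen, with 476 RPM in large intestine the highest.

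**Figure D5:**
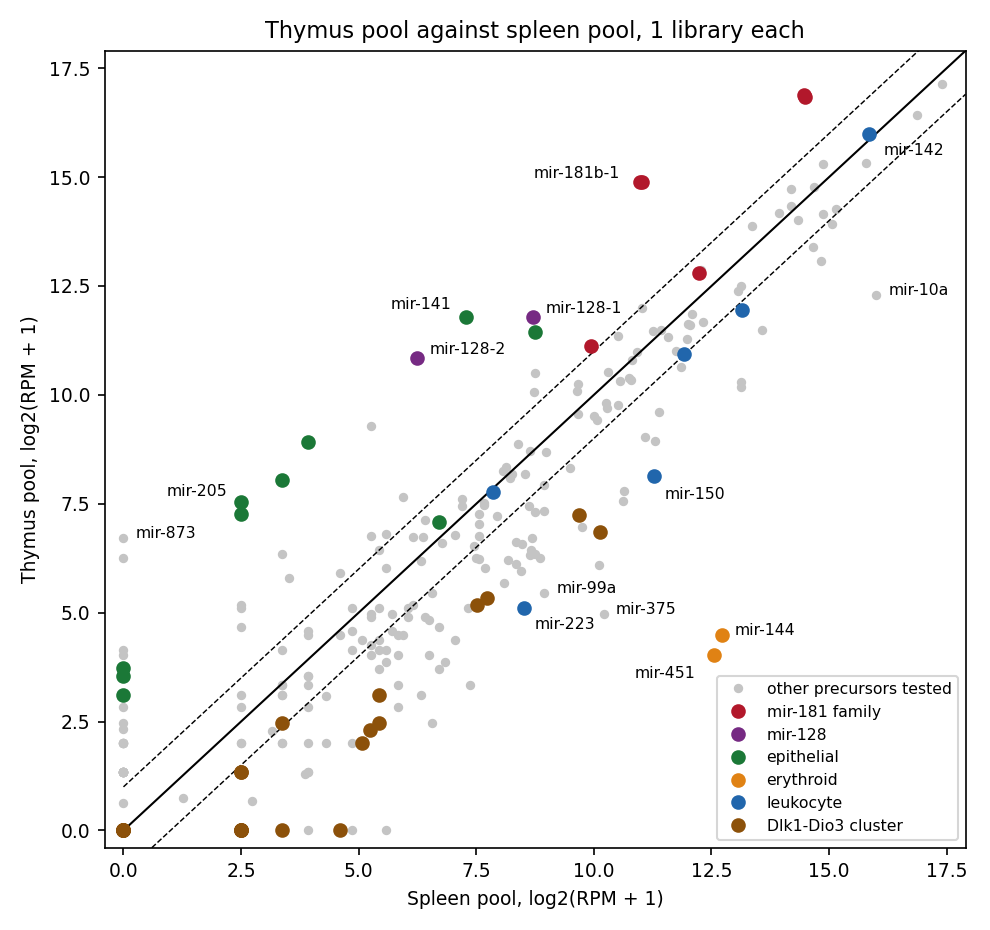
Levels in the thymus pool against the spleen pool, in log2(RPM + 1), 1 library each, for the 295 precursors tested, with members of 6 lists in colour. The solid line marks equal levels and the dashed lines 2-fold. Most epithelial miRNAs (3 of them listed at 0 in spleen), mir-128 and most of the mir-181 family lie above the lines, mir-142 on the solid line, and mir-451, mir-144, mir-150, mir-223, mir-99a and mir-375 below.

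Beside these values stands a limit of another library. mir-122, the liver miRNA, was 1.52 RPM in thymus, 14726 in liver and 14862 in pancreas, and 8.17 at most in the rest, so the library labelled pancreas carries a marker of liver. Pancreas and liver also had the same r with thymus, 0.816, and the same rho, 0.799. The library is named pancreas by its label throughout, and whether it stands for a tissue apart from liver was not tested. Without the pancreas library, 69 precursors were above the median of the others and 107 below, in place of 68 and 98.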

How the data were processed

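Small RNA of 17 tissue libraries and 3 serum libraries was measured by sequencing. The authors used the TruSeq Small RNA kit and a MiSeq, trimmed bases under a phred score of 20, and aligned reads to Rn5 with Bowtie in Partek software (versions not given in the sources used here). They deposited estimated counts (expected counts) per miRNA, without normalization, for 444 precursors and 577 mature miRNAs of miRBase release 21 and 388 RefSeq miRNAs. The annotations count reads of the same libraries but differ in their totals (658618 precursor, 529218 mature and 635579 RefSeq reads in thymus), so each was scaled by its own total. Counts were rounded for the filter, for calls on fewer than 3 reads, for ratio and Wilson intervals, and for the TMM and DESeq2 factors. Levels used them unrounded.

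Levels, log2(RPM + 1), ranks, ratios and intervals came from scripts in Python 3.11.15 (SciPy 1.17.1, NumPy 2.4.6, pandas 2.3.3), tested on simulated counts. TMM factors (edgeR 4.0.16) and DESeq2 1.42.0 size factors, in R 4.3.3, served as alternative scalings, with no test. Other alternatives were 0.1 or 10 RPM added, no filter, 4-fold, the mature and RefSeq annotations, each other tissue or hemisphere left out and, added after the data were seen, levels on fewer than 3 reads raised to that of 3.

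Named miRNAs were the 3 markers, the 10 most abundant, the 10 furthest above and below the median, up to 15 highest in thymus with at least 100 reads, the 8 largest differences each way from spleen, and members of 20 lists. mir-301a, mir-301b, miR-3570, mir-99b, mir-100 and mir-125b-1 were named after their values were seen, as neighbours or relatives of these. The members and lists were chosen with earlier results of these data known. RefSeq neighbours are of GRCr8, another build than Rn5, so no coordinates are given.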

Additional observations from a re-analysis of the deposited data

Results flagged for a closer look

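The serum libraries, left out of the comparisons, also held reads of the 3 miRNAs named for the thymus, above the limit that a count of 0 allows (114 RPM over the 26348 reads of all 3 serum libraries). Mean serum levels were 7624 RPM ± 2739 (SD, n = 3) for mir-142 on 191 reads, 998 RPM ± 632 for mir-93 on 24 reads, 1158 RPM ± 498 for mir-128-1 on 29 reads and 253 RPM ± 121 for mir-128-2 on 7 reads. The tissue these reads came from was not tested.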

How the results depend on the processing

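Thymus is 1 library, so no leaving out of a thymus sample was possible, and depth limits it to levels above 4.55 RPM. No paired analysis was possible because thymus has 1 library and no result comes from a test. Of 3275 values recomputed for 131 named precursors, 1 that was at least 2-fold with totals turned in sign, mir-194-1, whose difference from the median was -1.18 with totals and 0.51 with DESeq2 factors. Smaller differences turned more often: of 131 differences from the median, 9 turned with TMM and 12 with DESeq2, and of 131 from spleen, 10 and 25. Adding 10 RPM left 59 precursors below the median and 31 higher in thymus than in spleen. Raising levels on fewer than 3 reads to that of 3 reads, chosen after seeing the data, left 65 below the median and 26 higher in thymus than in spleen. DESeq2 factors made thymus highest for 54, with 89 precursors higher in thymus and 65 higher in spleen. At 4-fold, 40 were above the median, 52 below, 34 higher in thymus and 64 higher in spleen. The seed group differences from the median with TMM and DESeq2 factors were 3.61 and 4.10 for miR-181 (3.41 with totals), 2.55 and 3.06 for miR-17/93 (2.93), 2.15 and 2.57 for miR-25/92 (1.95), 0.41 and 0.75 for let-7 (0.02), and 5.25 with DESeq2 for miR-128 (4.81). The r of thymus with spleen was 0.857 with 0.1 RPM added, 0.906 with 10 RPM, 0.881 as a rank correlation and 0.918 over all 444 precursors. The cause of these shifts was not tested, other than the fewer calls that a higher threshold or more added RPM gives by construction. With 1 other tissue or hemisphere left out in turn, 64 to 70 precursors were above the median, 98 to 107 below and 22 to 28 highest in thymus, and of the lists counted above the median the leukocyte list ranged from 2 to 3.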

Other observations

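The neuronal list, led by mir-124 and mir-9a, summed to 170 RPM in thymus against 45929 in brain and 37.1 in lung. In it 2 of 9 members were at least 2-fold above the median, near the share over all precursors of 23.1%. They were mir-219a-2, on 2.64 reads (3 after rounding), and mir-124-1, on 1 read, at or below the detection limit of 3 reads. Of 4 tested miRNAs of striated muscle, mir-208b stood at 24.3 RPM (16 reads) and mir-499 at 80.5 RPM (53 reads) in thymus, with 2899 and 1236 RPM in heart, and ranked 3rd of 15 for both, also behind testes for the first and kidney for the second. mir-133a, of all striated muscle, stood at 16.7 RPM in thymus and 68920 in skeletal muscle, and the list summed to 123 RPM in thymus, 14.1 in spleen and 70671 in skeletal muscle.

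In the mir-29 family, known in thymic epithelium for setting its response to interferon, mir-29a stood at 320 RPM against 722 in spleen and mir-29b-2 at 22.8 RPM (15 reads) against 28.1 in spleen. Not on its list were mir-29c-1 and mir-29c-2, each 14th of 15 with totals, at -1.30 and -0.70 from the median. mir-29b-3, also left out, was 5th at 0.96. Of the mir-30 family, mir-30e was 2nd of 15 at 27022 RPM, after heart with 42785, while mir-30a and mir-30d were at least 2-fold below the median with totals and TMM and not with DESeq2. The gut, liver and kidney miRNAs mir-192 and mir-194 summed to 2936 RPM in thymus against 2821 in spleen and 350309 in small intestine.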
